A study of Mus musculus with 11 samples.

Results

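The 10 chemokine ligand genes described here were *Cxcl9*, *Cxcl10*, *Cxcl11*, *Cxcl12*, *Cxcl1*, *Cxcl16*, *Cx3cl1*, *Ccl2*, *Ccl5* and *Ccl7*. They were found by matching the Entrez gene identifiers of the 27179 rows of the count matrix to these symbols, and all 10 had a row. RNA sequencing had been carried out on CD31hi EMCNhi endothelial cells sorted from the bone marrow of BALB/c mice of 8 to 10 weeks, after gating out CD45+ and Ter119+ blood cells. Tumour-burdened mice carried the 4T1.2-RFP mammary cancer line, and their bones were microdissected by red fluorescence into infiltrated marrow (met, 3 libraries) and adjacent tumour-free marrow (non-met, 6 libraries). Age-matched mice without tumour cells gave the control group (2 libraries). The labels name no engineered allele and no treatment. The libraries came from 6 mouse pools of 1 to 4 animals. Of the 4 burdened pools, the first yielded non-met 1 and 5 only. Met 1 shared its animals (pool 2) with non-met 2 and 6, met 2 (pool 3) with non-met 3, and met 3 (pool 4) with non-met 4. Libraries of the same pool are not independent animals, and p-values below treat them as separate.

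Total counts were 19539761 and 5029771 in the controls, 733342 to 7683451 in non-met and 2547520 to 8771860 in met libraries. The 12 endothelial marker genes, *Pecam1* and *Emcn* among them, had reads in all 11 libraries, with a summed level of 10700 to 21600 CPM (counts scaled to a common library size). Transcripts of other cells were also present. Summed granulocyte markers were at 397 to 5110 CPM in non-met, 77.8 and 359 CPM in control and 35.6 to 203 CPM in met libraries. The sum of the epithelial keratins *Krt8*, *Krt18* and *Krt19*, which mark mammary and other epithelia, was below 5 CPM in both controls and non-met 1 and 2 and between 9.75 and 83.5 CPM in the other 7 libraries. Every met library had this trace and no control had it, so the trace and the group cannot be told apart in the comparison of met with control.

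Chemokines are small secreted proteins that guide leukocytes along gradients held on the vessel wall by heparan sulphate. CXCL9, CXCL10 and CXCL11 are induced by interferons, and all bind CXCR3, a receptor of activated T and NK cells. CXCL12 binds CXCR4 and ACKR3 and retains blood stem cells and B-cell precursors in marrow. Its best known marrow sources are the leptin receptor-positive perivascular stromal cells, with a smaller part from endothelium. The genes of the CXCR3 ligands lie side by side on chromosome 5 of GRCm38 (the build of mm10), all on the minus strand: *Cxcl9* (Entrez gene 17329) at chr5:92321331-92328079, *Cxcl10* (15945) at chr5:92346638-92348889 and *Cxcl11* (56066) at chr5:92359544-92363296. *Cxcl12* (20315) lies on the plus strand at chr6:117168535-117181368.

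RefSeq (GRCm38.p6) sequences of the 250 bases before the start site were available for 5 of the 10 members. The patterns searched on both strands included 2 that are given here, namely the core of the interferon-stimulated response element (ISRE), GAAANNGAAA, and a kappaB-like pattern, GGGNNNTTCC. Of 32851 mouse promoter windows of the same length, 2.98% held the ISRE core and 4.65% the kappaB-like pattern. The windows of *Cxcl10*, *Cxcl9* and *Cxcl12* are shown 5′ to 3′ on the gene's strand, with matches in capitals, because these were the members with the highest transcript levels among those with an entry.
Cxcl10, chr5:92348890-92349139, minus strand: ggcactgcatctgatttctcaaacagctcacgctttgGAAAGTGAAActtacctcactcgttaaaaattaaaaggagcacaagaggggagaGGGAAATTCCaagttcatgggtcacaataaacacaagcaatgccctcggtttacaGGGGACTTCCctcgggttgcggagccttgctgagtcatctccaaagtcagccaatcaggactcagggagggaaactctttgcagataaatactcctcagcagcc
Cxcl9, chr5:92328080-92328329, minus strand: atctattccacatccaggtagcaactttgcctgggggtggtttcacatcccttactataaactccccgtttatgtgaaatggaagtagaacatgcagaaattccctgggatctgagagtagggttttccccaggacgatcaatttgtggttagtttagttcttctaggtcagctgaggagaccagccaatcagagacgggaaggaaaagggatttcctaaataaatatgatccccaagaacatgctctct
Cxcl12, chr6:117168285-117168534, plus strand: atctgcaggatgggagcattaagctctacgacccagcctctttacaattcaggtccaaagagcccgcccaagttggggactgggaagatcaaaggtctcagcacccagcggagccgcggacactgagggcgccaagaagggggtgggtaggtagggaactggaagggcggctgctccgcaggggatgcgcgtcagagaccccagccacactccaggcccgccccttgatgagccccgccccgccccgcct
The *Cxcl10* window held 1 ISRE core at positions -213 to -204 from the start site and 2 kappaB-like matches, at -159 to -150 and -104 to -95. The windows of *Cxcl9* and *Cxcl12* held neither of the 2 patterns, which says only that these letters were not in the windows. The window of *Cxcl1*, a ligand with at most 3.42 CPM in any library, held 3 kappaB-like matches, 2 of them overlapping. A match is a description of the letters and not a binding site.

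In marrow infiltrated by tumour, the endothelial fraction carried far more *Cxcl10* and *Cxcl11* than the adjacent marrow. *Cxcl10* was on average 60.5-fold higher in met than in non-met libraries, and *Cxcl11* was at least 38.6-fold higher, against a floor of 3 reads per library averaged over the non-met libraries. Without non-met 4, the shallowest library, these values were 190-fold and at least 60.5-fold. The lowest values with 1 library left out were 50.4-fold (without non-met 5 or 6) and at least 29.2-fold (without met 1). *Cxcl9*, the third CXCR3 ligand, was present at a high level in all 3 groups. *Cxcl12* was instead highest in the healthy controls and lower in both kinds of burdened marrow. In bulk samples, fewer cells of a type and less RNA per cell cannot be told apart, and this holds for each difference that follows.

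**Figure D1:**
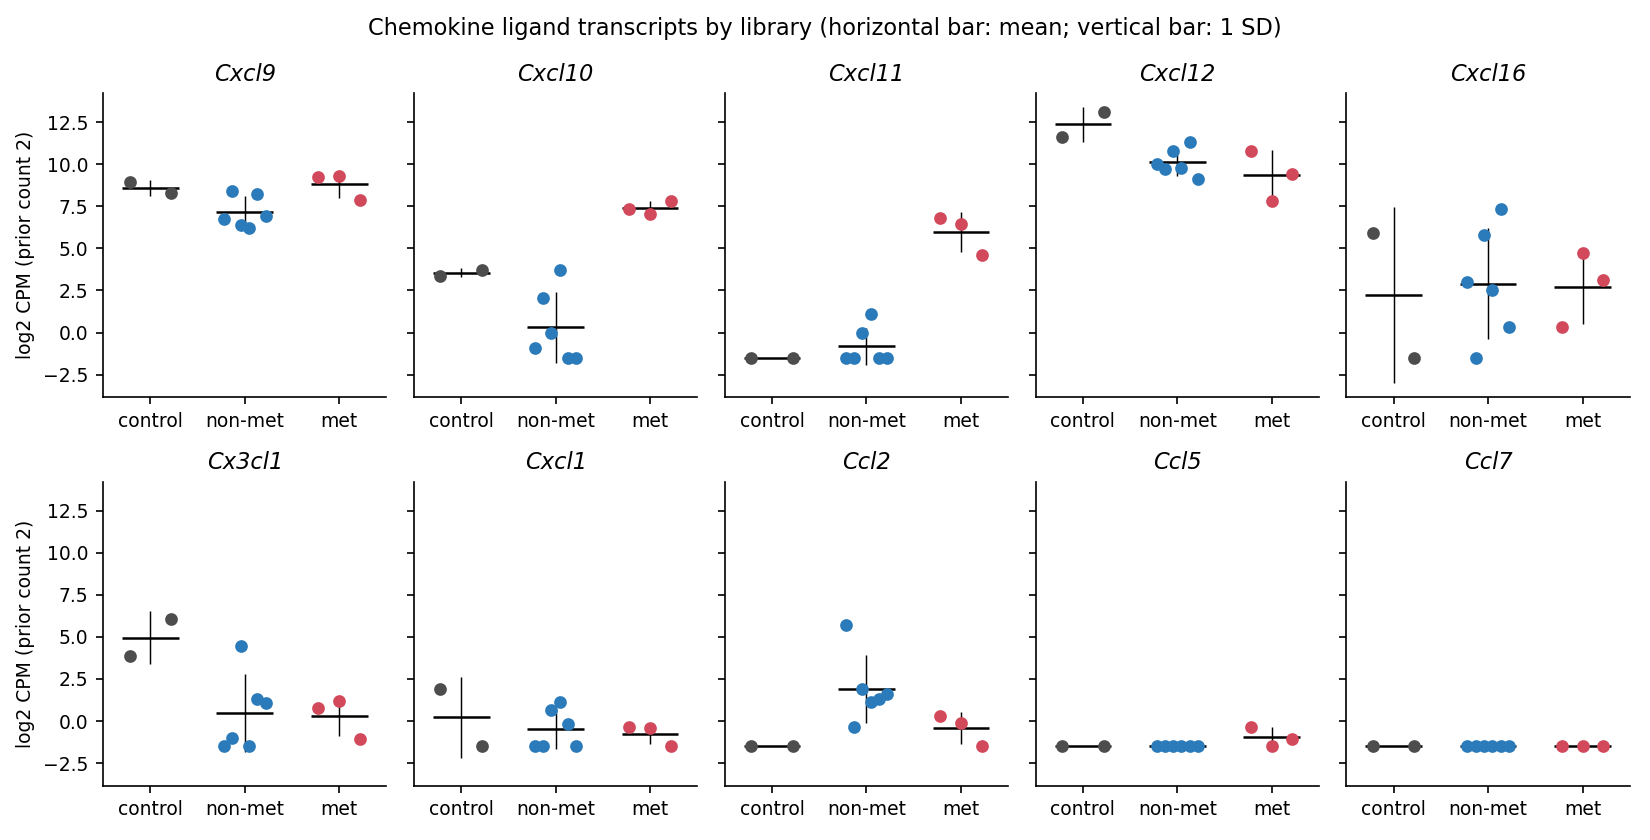
Level of each of the 10 chemokine ligands in each library, as log2 CPM with a prior count of 2, in control (grey, n = 2), non-met (blue, n = 6) and met (red, n = 3) libraries; horizontal bars are means, vertical bars 1 SD. *Cxcl10* and *Cxcl11* of the 3 met libraries lie above every other library, and *Cxcl12* of the controls lies above all 9 burdened libraries.

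*Cxcl10*, an interferon-induced attractant of activated T cells, stood at 162, 131 and 228 CPM in met 1, 2 and 3. In non-met 1 to 6 it stood at 0.18, 3.77, 0.622, 12.7, 0 and 0 CPM, and in control 1 and 2 at 9.92 and 12.9 CPM. The met libraries lay above all other libraries, and the highest non-met value, in non-met 4, rested on 7 reads in the shallowest library. The fitted log2 fold change of met against non-met was 6.92 (SE 1.2; voomLmFit adjusted p = 0.00296). DESeq2 also called it (adjusted p = 0.00135), whereas the edgeR quasi-likelihood test (adjusted p = 0.335) and limma-trend (adjusted p = 0.712) did not. The exact two-sided permutation test of mean log2 CPM gave a difference of 7.10 and p = 0.0119, the smallest p that 84 splits allow. The study had picked *Cxcl10* and *Cxcl11* from these same libraries, so these values are not independent evidence of their direction.

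*Cxcl11*, which binds CXCR3 most tightly of the 3 ligands, had 111, 88.5 and 24.4 CPM in met 1, 2 and 3. It had no read in either control or in non-met 1, 2, 5 and 6, while non-met 3 and 4 had 0.622 and 1.81 CPM from at most 2 reads. The groups did not overlap. The fitted log2 fold change of met against non-met was 6.49 (SE 1.3; voomLmFit adjusted p = 0.0223), and DESeq2 also called it (adjusted p = 0.00715). The quasi-likelihood test (adjusted p = 0.535) and limma-trend (adjusted p = 0.461) did not call it, and the exact two-sided permutation test gave p = 0.0119, again the smallest possible. The call was lost in 6 of the 11 fits that left out 1 library (adjusted p 0.0637 to 0.0904), and with libraries of one pool summed (adjusted p = 0.282). A fitted fold change of a gene at the floor in one group depends on the prior count. The bound of 38.6-fold above does not, but it covers counting error only, as does the bound against control below.

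*Cxcl9*, the interferon-gamma-induced CXCR3 ligand, had 598, 623 and 239 CPM in met 1, 2 and 3. Non-met 1 to 6 had 105, 346, 84.3, 74.2, 300 and 121 CPM. Met 3 lay below non-met 2 and 5, so the groups overlapped. The ratio of mean CPM was 2.83, the fitted log2 fold change was 1.12 (SE 0.697; voomLmFit adjusted p = 0.75), and the exact two-sided permutation test gave p = 0.0595. The *Cxcl9* difference did not pass any of the 4 tests across genes, while *Cxcl10* and *Cxcl11* passed voomLmFit and DESeq2 only. The unadjusted p of *Cxcl9* was 0.121 by voomLmFit, 0.0113 by the quasi-likelihood test, 0.0151 by limma-trend and 0.0284 by DESeq2. *Cxcl9* was higher in met under each. Its adjusted p was 0.291 to 1 over 26 alternative settings.

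Of the 7 members that passed the filter on low counts, voomLmFit called 2 higher and 0 lower in met than in non-met. *Cxcl11* passed the filter only through the met libraries, so that it could be called only as higher in met, and nothing is read from this count. Over all 11948 genes tested 0.418% were called, and 0.276% were called higher in met. At an unadjusted p under 0.05 voomLmFit had 3 members, *Cxcl10*, *Cxcl11* and, lower in met, *Cxcl12*. The quasi-likelihood test called 0 members, with 3 at an unadjusted p under 0.05, limma-trend called 0 with 3, and DESeq2 called 2 with 3. Under each of these tests *Cxcl9*, higher in met, stood in the place of *Cxcl12*. The shares of all genes called by these tests were 0.142%, 0.0167% and 3.23%. No share of all genes at an unadjusted p is given, here or for the lists below, and nothing is read from such counts. Of all genes tested, 1.54% had every met library above every non-met library, as *Cxcl10* and *Cxcl11* did, and 0.444% had every met library below, as no tested member did. The median log2 fold change of the 7 members was 0.48, beside 0.07 over all genes tested.

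**Figure D2:**
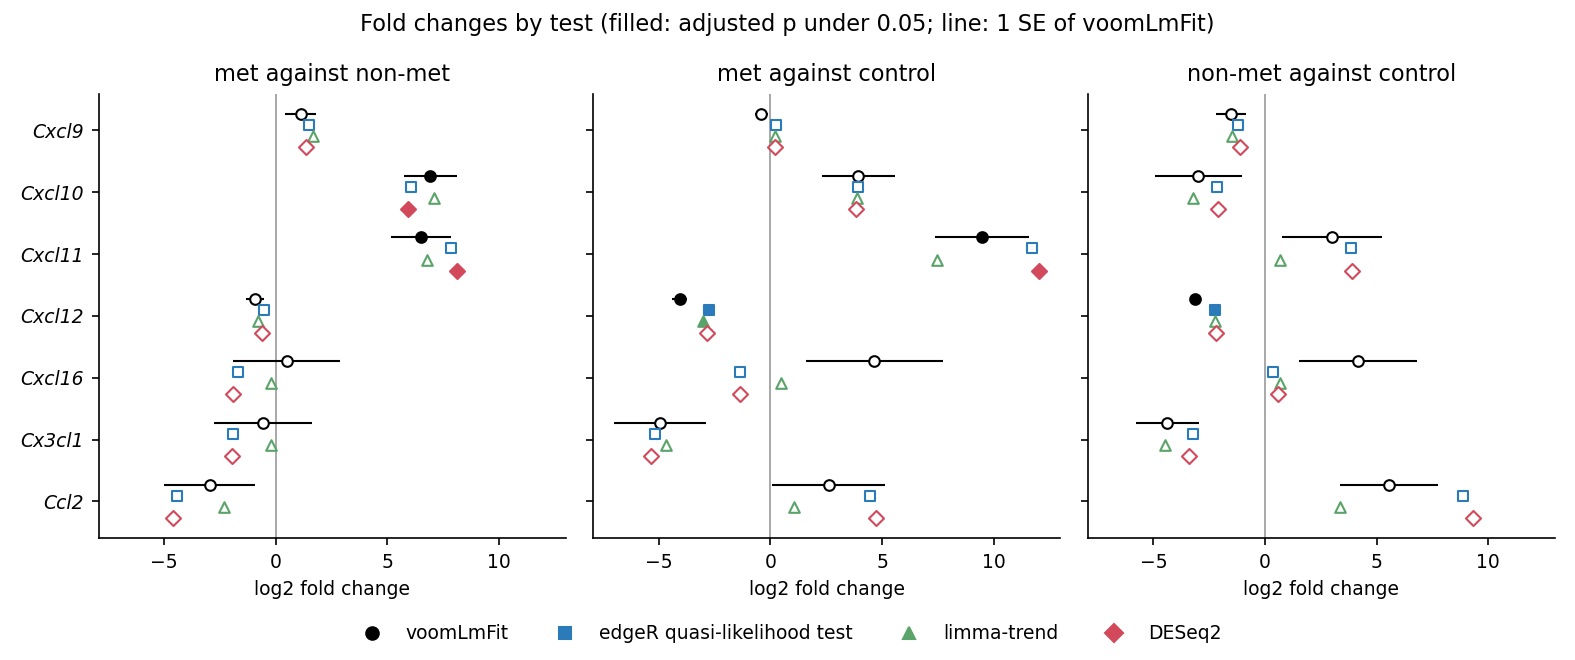
Log2 fold change of the 7 tested members in each comparison under voomLmFit, the edgeR quasi-likelihood test, limma-trend and DESeq2; filled markers passed an adjusted p of 0.05 over all genes tested, and lines are 1 SE of voomLmFit. *Cxcl10* and *Cxcl11* were filled under 2 of the 4 tests for met against non-met, and *Cxcl12* was filled under 3 for met against control and 2 for non-met against control.

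Because met and non-met marrow came from the same animals in 3 burdened pools, the ligands could be compared inside each pool (difference of log2 CPM, without a test). *Cxcl9* was higher in met in 3 of 3 pools, by 1.54, 2.88 and 1.68. *Cxcl10* was higher by 7.06, 7.06 and 4.13, and *Cxcl11* by 8.28, 6.50 and 3.52. Non-met libraries had at most 2 reads of *Cxcl11*, and non-met 3 and 6 had 2 and 0 reads of *Cxcl10*. The size of these differences therefore depends on the prior count. The direction of all 3 CXCR3 ligands was thus the same in each pool, while *Cxcl12* was higher in met in pool 2, by 1.38, and lower in pools 3 and 4, by -2.99 and -0.35. No share of all genes with the same direction in all 3 pools is given beside this agreement. The study had also picked *Cxcl10* and *Cxcl11* from these libraries. *Ccl2*, a monocyte attractant, had 2, 3 and 0 reads in met 1, 2 and 3, at or under the floor of 3 reads. Non-met 2 and 6 (pool 2) had 3 and 3 reads, non-met 3 (pool 3) had 11 and non-met 4 (pool 4) had 1. Its differences of -0.32 to -2.60, at levels of at most 3.42 CPM, thus depend on depth and the prior count. No direction is read from them. With pool as a fixed block in voomLmFit, the log2 fold changes were 6.03 for *Cxcl10* and 5.57 for *Cxcl11*, with an adjusted p of 1 for each. With pool as a random block both were called, at adjusted p of 0.0028 and 0.022. With libraries of one pool summed *Cxcl10* was not called (log2 fold change 6.06, adjusted p = 0.184), nor was it without met 3 (adjusted p = 0.0517). Over all 26 alternatives the adjusted p ranged from 0.000934 to 1 for *Cxcl10* and from 0.00587 to 1 for *Cxcl11*.

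**Figure D3:**
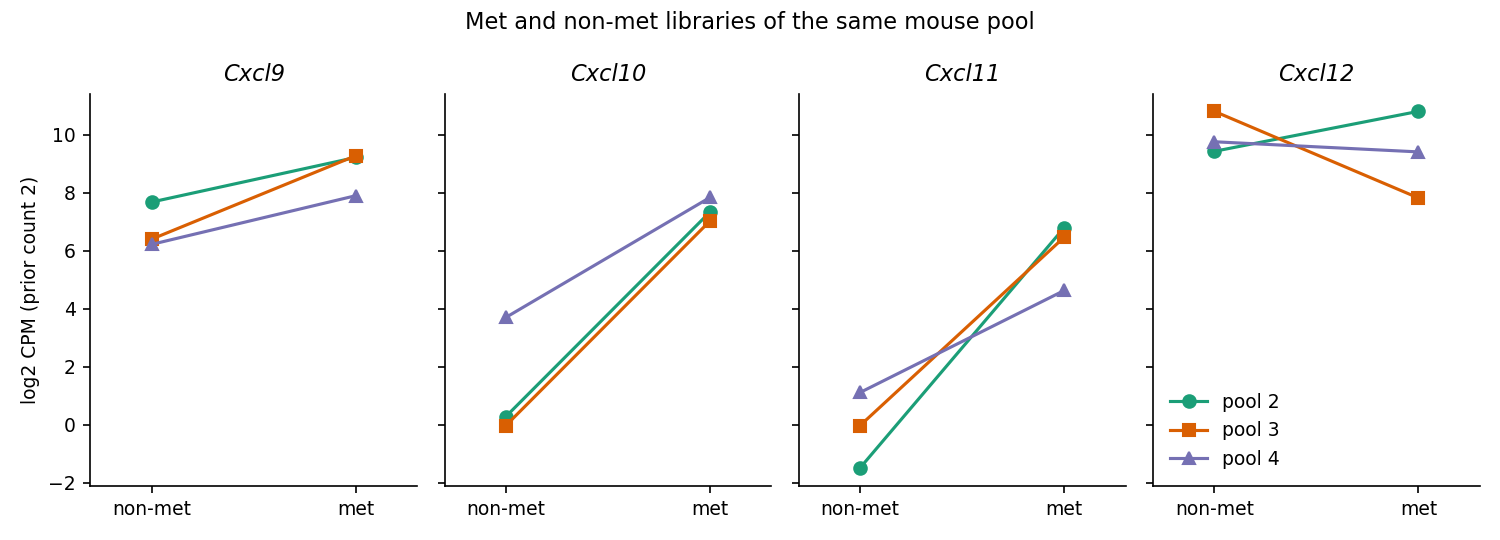
Log2 CPM (prior count 2) of the 3 CXCR3 ligands and *Cxcl12* in the met library and in the non-met marrow of the same mouse pool, with the 2 non-met libraries of pool 2 averaged. Each line is 1 of the 3 burdened pools with both kinds of library; the lines of *Cxcl9*, *Cxcl10* and *Cxcl11* rise in all 3, and those of *Cxcl12* differ in direction.

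Other values were looked at in the same libraries. Of the 12 endothelial markers, voomLmFit called 5 higher in met than in non-met (*Pecam1*, *Cdh5*, *Eng*, *Tie1* and *Plvap*), beside 0.276% of all genes tested, and the other 3 tests called 0, with 0 to 3 at an unadjusted p under 0.05. Their summed level was 16300 to 21300 CPM in met and 11700 to 21600 CPM in non-met libraries. Summed granulocyte markers, at 35.6 to 203 CPM in met and 397 to 5110 CPM in non-met, did not overlap between the groups. Mitochondrial reads took 4.33% to 9.56% of the met and 6.73% to 17.8% of the non-met counts. The keratin sum was 19.8, 68.0 and 9.75 CPM in met 1, 2 and 3. It was 83.0, 63.3, 25.5 and 83.5 CPM in non-met 3, 4, 5 and 6, in which *Cxcl10* was between 0 and 12.7 CPM. Among the 7 libraries with the keratin trace, the fitted log2 fold changes of met against non-met were 6.62 for *Cxcl10* (voomLmFit adjusted p = 0.271) and 5.46 for *Cxcl11* (adjusted p = 0.749). Summed monocyte and macrophage markers were 354 to 877 CPM in met and 459 to 1400 CPM in non-met libraries, and summed T and NK cell markers were 0 to 22.6 and 0 to 88.6 CPM. *Cxcr3* itself, the receptor, had 198 reads in met 3, 1 read in another library and none elsewhere. The part of these cells and of RNA quality in the result was not tested. The exons of *Cxcl10* and *Cxcl11* overlap *Art3* on the opposite strand over 5.91% and, together with *Gm2673*, 41.7% of their bases, and whether counting used strand is not stated. *Art3* was at 0, 0 and 8.95 CPM in met 1, 2 and 3, and at 0 to 105 CPM in non-met libraries.

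Infiltrated marrow was next set against healthy marrow. *Cxcl11* was higher in met, and *Cxcl12* was lower. The level of *Cxcl11* was at least 220-fold that of the controls, which had no read (at least 141-fold without control 1 and 509-fold without control 2), and the fitted log2 fold change was 9.49 (SE 2.11; voomLmFit adjusted p = 0.0218). *Cxcl10* was 15.2-fold higher in mean CPM with no overlap, at a log2 fold change of 3.94 (SE 1.64) that did not pass (voomLmFit adjusted p = 0.25). *Cxcl9* was 495 and 310 CPM in control 1 and 2 and its log2 fold change was -0.40 (SE 0.303; adjusted p = 0.608). Healthy marrow endothelium thus carried *Cxcl9* at a level inside the met range of 239 to 623 CPM. The exact permutation test of met with control has 10 splits and cannot give a p below 0.1, the value for *Cxcl10* and *Cxcl11*.

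Of the 7 tested members, voomLmFit called 1 higher (*Cxcl11*) and 1 lower (*Cxcl12*) between met and control, beside 1.2% of all genes tested (0.686% higher, 0.511% lower), and the same limit holds for *Cxcl11* here. Without control 1, non-met 5 or met 2 the call of *Cxcl11* was lost, at adjusted p of 0.136, 0.0519 and 0.0591. It was also lost with pools summed, with only the 2 groups in the fit, and with a filter of at least 5 CPM on average (adjusted p of 0.11, 0.143 and 0.0761). Neither the quasi-likelihood test (adjusted p = 0.886) nor limma-trend (adjusted p = 0.513) called *Cxcl11*, whereas DESeq2 did (adjusted p = 0.00386). Of the 7 members, *Cxcl12* was the 1 called by quasi-likelihood and the 1 called by limma-trend, beside 0.0837% and 0.0753% of all genes. DESeq2 gave an adjusted p to 5 of the members and to 10099 genes, and called 1 member, *Cxcl11*, beside 2.26% of those genes. Every met library lay above both controls for 8.43% of all genes tested, as for *Cxcl10* and *Cxcl11*.

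*Cxcl12*, the ligand that holds blood stem cells in marrow, had 3220 and 8720 CPM in control 1 and 2, more than any other member in those libraries. In non-met 1 to 6 it had 1020, 856, 1790, 865, 2600 and 555 CPM, and in met 1, 2 and 3 it had 1800, 225 and 679 CPM. All 9 burdened libraries lay below both controls, as they did for 2.39% of all genes tested, and met and non-met overlapped widely. Mean CPM in the controls was 4.66-fold that of non-met and 6.62-fold that of met libraries. Without control 2 these ratios were 2.52 and 3.57, and without met 1 the latter was 13.2. The log2 fold change was -3.12 (SE 0.216; voomLmFit adjusted p = 1.64e-09) for non-met against control and -4.07 (SE 0.345; adjusted p = 2.25e-08) for met against control. This fit weighted control 1 at 0.43 and control 2 at 1.69, so both values lean on control 2. Non-met 4, the shallowest library, had the highest weight, 1.96. Without control 2, which leaves 1 control library, the log2 fold changes were -1.69 and -2.58. With libraries of one pool summed, neither difference was called (adjusted p of 0.285 and 0.364). The quasi-likelihood test called both, at log2 fold changes of -2.22 (adjusted p = 4.24e-05) and -2.73 (adjusted p = 0.000173).

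The other tests differed for *Cxcl12*. Limma-trend called it between met and control (log2 fold change -3.03, adjusted p = 0.0166) and not between non-met and control (-2.25, adjusted p = 0.121). DESeq2 called neither, at adjusted p of 0.124 and 0.281. In the exact two-sided permutation test non-met against control gave p = 0.0357, the smallest of 28 splits, and met against control gave p = 0.2. Without the 3 libraries under 2000000 counts (non-met 4, 5 and 6) the log2 fold changes were -1.63 (adjusted p = 0.699) and -2.70 (adjusted p = 0.62) for non-met and met against control. Met against non-met the log2 fold change was -0.94 (SE 0.407; voomLmFit adjusted p = 0.624) with an exact two-sided permutation p of 0.333.

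Stromal marker transcripts were compared with *Cxcl12*. The summed level of 10 stromal genes, which include *Lepr*, *Pdgfra*, *Col1a1* and *Adipoq*, was 1050 and 2980 CPM in the controls, 362 to 1300 CPM in non-met and 253 to 688 CPM in met libraries. Non-met 5, which had the highest *Cxcl12* of the burdened libraries, exceeded control 1 in this sum, and non-met 6, with the lowest *Cxcl12* of its group, had 787 CPM. *Lepr*, which marks the perivascular stromal cells that make CXCL12, was at 246 and 979 CPM in the controls, 0.622 to 221 CPM in non-met and 52.5 to 148 CPM in met libraries. All 9 burdened libraries lay below both controls for *Lepr* and *Adipoq*, as for *Cxcl12*, whereas *Pdgfra*, *Pdgfrb*, *Kitl* and *Col1a2* had burdened libraries inside or above the range of the controls. *Pdgfrb*, for example, was at 155 and 285 CPM in the controls and at 318 and 303 CPM in non-met 5 and 6. Per unit of the stromal sum, *Cxcl12* was 3.06 and 2.93 in the controls, 0.706 to 3.29 in non-met and 2.62, 0.889 and 1.33 in met libraries. All met ratios lay below both controls, and non-met 3 was the highest of all libraries. None of the 9 stromal genes that passed the filter was called by any of the 4 tests in any comparison, with 1, 2 and 1 at an unadjusted p under 0.05 by voomLmFit for met against non-met, met against control and non-met against control. Granulocyte markers and the mitochondrial share (5.40% and 6.20% in the controls, 6.73% to 17.8% in non-met) were higher in every non-met library than in both controls. The part of stromal cells, granulocytes and RNA quality in the *Cxcl12* difference was not tested.

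**Figure D4:**
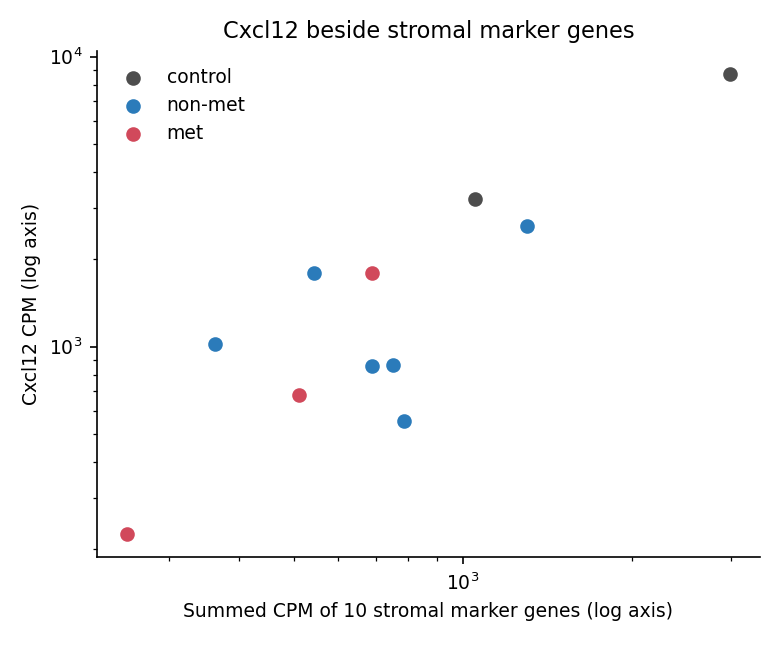
*Cxcl12* CPM against the summed CPM of 10 stromal marker genes in each library, both on log axes, in control (grey), non-met (blue) and met (red) libraries. The controls have the highest *Cxcl12*, 3220 and 8720 CPM, and control 2 also has the highest stromal sum, 2980 CPM.

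Of the 7 tested members, voomLmFit called only *Cxcl12*, lower, between non-met and control, beside 0.636% of all genes tested (0.452% lower). The quasi-likelihood test also called 1 member, beside 0.117% of all genes. Limma-trend and DESeq2 called 0 members, each with 1 at an unadjusted p under 0.05, beside 0.067% and 2.61% of all genes. Every non-met library lay below both controls for 5.03% of all genes tested, as for *Cxcl12*. Over all genes the median log2 fold change of this comparison was -0.33, and between -0.54 and -0.24 with library size or RLE scaling. That of *Cxcl12* was -3.12 under TMM, -3.43 under library size and -3.24 under RLE scaling. The part of scaling in this difference was not tested. *Cxcl9* was 2.34-fold lower in mean CPM in non-met than in control libraries, with 1 of the 6 non-met libraries inside the range of the controls. Its log2 fold change was -1.52 (SE 0.678; voomLmFit adjusted p = 0.264), with an exact two-sided permutation p of 0.107. For *Cxcl10* the log2 fold change was -2.98 (SE 1.93; voomLmFit adjusted p = 0.396). None of the CXCR3 ligands was called in adjacent marrow.

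Levels of different genes can be compared only per length, as CPM per kilobase of transcript (RPKM). On this scale mean *Cxcl12* was 834 in control, 179 in non-met and 126 in met libraries. Mean *Cxcl9* was 139, 59.1 and 168 RPKM, mean *Cxcl10* 10.4, 2.61 and 158 RPKM, and mean *Cxcl11* 0, 0.252 and 46.5 RPKM. In the controls *Cxcl12* therefore led and *Cxcl9* came next. In met libraries the order varied. *Cxcl12* was highest in met 1 (251 RPKM), *Cxcl9* in met 2 (214 RPKM) and *Cxcl10* in met 3 (207 RPKM). The log2 RPKM of *Cxcl9* minus that of *Cxcl12* was -1.40 and -3.51 in the controls, -3.10 to 0 in non-met and -0.29, 2.77 and -0.20 in met 1, 2 and 3.

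The 3 CXCR3 ligands together made up 62.4%, 89.9% and 75.6% of the summed RPKM of the 10 members in met 1, 2 and 3. They made up 9.54% to 50.5% in non-met libraries and 27.1% and 8.73% in the controls. *Cxcl12* made up 37.2%, 7.28% and 23.5% in met, 49.2% to 79.5% in non-met and 68.0% and 89.7% in control libraries. Neither share overlapped between met and the other groups. *Cxcl10* and *Cxcl11*, which the study picked, enter this share, and it is given as a description without a test.

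**Figure D5:**
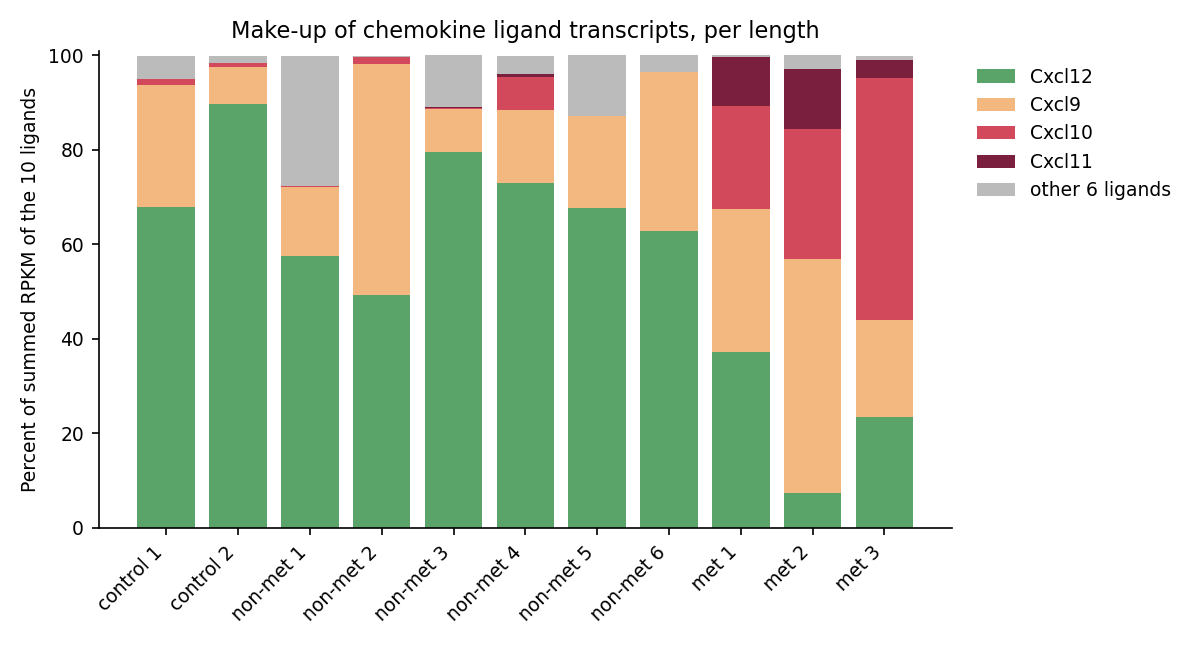
Make-up of the summed RPKM of the 10 chemokine ligands in each library, in percent, as stacked bars for *Cxcl12*, *Cxcl9*, *Cxcl10*, *Cxcl11* and the other 6 ligands. *Cxcl12* fills 37.2% or less of the bar in met and at least 49.2% in every non-met and control library.

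The membrane-bound ligands varied strongly between libraries of the same group. *Cx3cl1*, the CX3CR1 ligand on inflamed vessels, was at 13.9 and 66.7 CPM in the controls, 0, 0.145, 21.5, 0, 2.12 and 1.78 CPM in non-met 1 to 6 and 1.32, 1.89 and 0.115 CPM in met 1, 2 and 3. All met libraries lay below both controls, and non-met 3 lay between them. Mean CPM was 36.3-fold higher in control than in met and 9.49-fold higher than in non-met libraries. Single libraries carried these ratios, which were 12.5 and 3.28 without control 2 and 60.1 and 15.7 without control 1. The first was 56.2 without met 2, and the second 49.9 without non-met 3. The 3 met libraries had at most 10 reads each. The log2 fold change was -4.93 (SE 2.06; voomLmFit adjusted p = 0.25) for met and -4.37 (SE 1.42; adjusted p = 0.124) for non-met against control, so that neither passed. Every met library lay below every control for 12.3% of all genes tested.

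*Cxcl16*, the CXCR6 ligand, was at 59.9 and 0 CPM in control 1 and 2. It was at 7.57, 0, 54.1, 5.43, 160 and 0.889 CPM in non-met 1 to 6 and at 0.881, 25.8 and 8.26 CPM in met 1, 2 and 3. Each group held libraries at or near 0 and libraries above 20 CPM. Met against non-met it had a log2 fold change of 0.48 (SE 2.40; voomLmFit adjusted p = 0.979), and its sign turned under the other 3 tests. Its exons share 18.3% of their bases with *Zmynd15* on the opposite strand.

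*Ccl2* had no read in either control and 52.4, 0.435, 3.42, 1.81, 2.12 and 2.67 CPM in non-met 1 to 6. It had 0.881, 0.57 and 0 CPM in met 1, 2 and 3. Every non-met library lay above the controls, as for 1.26% of all genes tested, but only non-met 1, with 291 reads, lay clearly apart. The log2 fold change of non-met against control was 5.56 (SE 2.19; voomLmFit adjusted p = 0.205), with an exact two-sided permutation p of 0.107 (0.0357, the smallest of 28 splits, with a prior count of 0.5). *Ccl7*, its neighbour on chromosome 11 and a ligand of CCR2 as well, had no read in any of the 11 libraries. *Ccl5*, a chemokine made by T cells, had 1 read in each of met 1 and met 3 and none elsewhere. *Cxcl1*, a CXCR2 ligand that attracts neutrophils, had 70 reads (3.42 CPM) in control 1 and at most 1.81 CPM in every other library. *Cxcl1*, *Ccl5* and *Ccl7* did not pass the filter and were not tested. A count of 0 allows up to 3 reads, which is 0.147 CPM in control 1 and 5.43 CPM in non-met 4. Low levels of these ligands were thus not detectable in the shallow libraries. This floor covers counting error only. *Cxcl16* had 1226 reads in control 1 and 0 in control 2, which had 5029771 counts. A 0 therefore does not bound the level in the cells, in deeper libraries either.

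Other genes of the chemokine system were taken from lists of ligands, receptors, processing enzymes and upstream factors. Of 28 other chemokine ligands, 11 had no read in any library and 4 were tested. None was called by voomLmFit in any comparison, with 1 at an unadjusted p under 0.05 (*Cxcl14*, met against control). DESeq2 called *Pf4*, a platelet chemokine, in both comparisons with control, beside 2.26% and 2.61% of the genes it adjusted. *Pf4* had no read in the controls and more than 3 reads in only 2 of 6 non-met and 2 of 3 met libraries, and its voomLmFit adjusted p was 0.422 for met and 0.342 for non-met. *Cxcl14* was at 65.9 and 222 CPM in the controls, 5.33 to 127 CPM in non-met and 0.189 to 108 CPM in met libraries. Of 23 receptors, 9 were tested. *Ackr4*, a scavenger of CCL19, CCL21 and CCL25, was at 45.8 and 35.4 CPM in the controls, at 13.7 CPM in non-met 1 and at 0 in the other 8 burdened libraries. Its log2 fold change was -8.55 (SE 1.94; voomLmFit adjusted p = 0.0287) for met and -6.31 (SE 1.43; adjusted p = 0.0427) for non-met against control, and no other test called it. It passed the filter only through the controls, which fixed its direction. It was the only receptor called by voomLmFit, beside 1.2% and 0.636% of all genes in these comparisons. *Ackr1*, the vessel-wall chemokine carrier, was at 281 to 286 CPM in control, 69.3 to 238 CPM in non-met and 56.3 to 331 CPM in met libraries. *Ackr3*, the scavenger of CXCL12, was at 9.78 and 25.5 CPM in the controls, 1.78 to 259 CPM in non-met and 0 to 122 CPM in met libraries. *Cxcr4* was at 40.8 to 74.9 CPM in met and 0 to 64.6 CPM in non-met libraries, and at 4.2 and 59.1 CPM in the controls.

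All 12 genes that shed chemokines, cut them or make the heparan sulphate that holds them were tested, and none was called by any of the 4 tests. By voomLmFit 2, 1 and 4 of them were at an unadjusted p under 0.05 for met against non-met, met against control and non-met against control. *Adam10*, which sheds CX3CL1 and CXCL16, was at 349 to 503 CPM in met, 124 to 335 CPM in non-met and 272 to 277 CPM in control libraries. *Ndst1*, a heparan sulphate sulphotransferase, was at 249 to 385, 122 to 411 and 145 to 298 CPM. *Adam17*, *Ext2* and *Hs2st1* also exceeded a mean of 100 CPM in a group.

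Of 19 genes upstream of the CXCR3 ligands, 16 were tested and none was called by any of the 4 tests, with 1, 2 and 3 at an unadjusted p under 0.05 by voomLmFit in the same order. *Irf1*, an interferon-induced transcription factor, was at 267 to 318 CPM in met, 76.0 to 292 CPM in non-met and 129 to 168 CPM in control libraries. Met against non-met it had a log2 fold change of 0.62 (SE 0.517; voomLmFit adjusted p = 0.815). The receptor gene *Ifngr1* was at 106 to 160 CPM in met, 16.3 to 248 CPM in non-met and 213 to 317 CPM in control libraries. *Il1r1*, the interleukin-1 receptor, had a log2 fold change of 3.00 (SE 0.838; voomLmFit adjusted p = 0.0762) for met against control, the smallest adjusted p of this list. *Nfkbia*, *Nfkb1* and *Tnfrsf1a*, of the NF-kappaB pathway, were each above a mean of 150 CPM in all 3 groups. *Ifnar1*, *Ifnar2*, *Stat2*, *Irf9* and *Rela* exceeded a mean of 100 CPM in at least 1 group.

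The genes whose log2 CPM was most like that of the members over the 11 libraries were listed as a description, since libraries share pools and depth. Closest to *Cxcl10* was *Cd74*, the invariant chain of MHC class II (Pearson r = 0.932, n = 11), at 132 to 287 CPM in met and at most 36.5 CPM in the other libraries. *Tubgcp5* (r = 0.905) and *Tnfrsf11a*, which encodes RANK (r = 0.899), followed. Closest to the mean of the 3 CXCR3 ligands were *Hhat* (r = 0.934), *2410022M11Rik* (r = 0.924) and *Rab27a* (r = 0.92). Closest to *Cxcl12* were *Lpl*, lipoprotein lipase (r = 0.908), *Ltbp1* (r = 0.887) and *Col6a2* (r = 0.835).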

How the data were processed

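RNA was sequenced from 11 libraries of sorted endothelial cells, prepared with a low-input full-length kit. According to the study's methods and the submitters' notes, the authors used Rsubread for alignment (mm10) and featureCounts with the annotation supplied in that package for counting by Entrez identifier, and removed 1 sample before deposit. The deposited values were raw counts with no normalisation, and strand use is not given in the sources used here.

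Symbols and coordinates came from RefSeq GRCm38.p6, and exon overlaps from GENCODE. Unnamed, predicted and ribosomal RNA rows were left out (1.95% to 15.7% of a library's counts), and filterByExpr (minimum count 10, minimum total 15) kept 11948 genes, 7 members among them. Counts were scaled by TMM, and CPM, log2 CPM (prior count 2) and RPKM used the scaled library sizes. The main test, following the study's methods, was voomLmFit with sample weights (edgeR 4.0.16, limma 3.58.1, R 4.3.3) in 1 fit of 3 groups, with Benjamini-Hochberg adjustment over all genes tested and a threshold of 0.05. It was tested on simulated data. The scaling and the shared fit were chosen here. Single members were also compared by exact two-sided permutation of log2 CPM. Alternatives were the edgeR quasi-likelihood test, limma-trend, DESeq2 1.42.0, other scalings, filters, rows and libraries, and mouse pool as a block. The labels give pools, and libraries of the same pool share animals. Correlations of their deviations from group means were -0.00547, -0.0338 and 0.013 over genes in the 3 pools with both kinds of marrow. The groups are small, so these values cannot show that libraries of a pool are independent.

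The named genes were the 10 members, genes of the lists that passed the test, and genes of the lists with a group mean of at least 100 CPM. Genes of the lists outside this rule (*Cxcr3*, *Cxcr4*, *Pf4*), *Art3*, *Gm2673* and *Zmynd15* were named after their values were seen. A gene of the lists that met this rule is not reported here. The members and lists were chosen with earlier results of these data known. Intervals and floors of 3 reads cover counting error only, and the reads carry no molecular identifiers.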

Additional observations from a re-analysis of the deposited data

Results flagged for a closer look

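*Ccl2* in non-met 1 lay far from the other 5 non-met libraries. Its log2 CPM was 5.72 there, from 291 reads, whereas the next highest was 1.92 and the lowest -0.34. This library alone decided the mean of the non-met group for *Ccl2*. Chance marks about 1 in 20 groups in this way.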

How the results depend on the processing

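The called ligands depended on the test and on the libraries. For met against non-met, 2 ligands were called, and 0 under the quasi-likelihood test, limma-trend, libraries of one pool summed, the 7 libraries with keratin traces alone, or without the 3 libraries under 2000000 counts (the last 2 chosen after seeing the data). The 3 shallow libraries were non-met 4, 5 and 6, and without them *Cxcl10* had a log2 fold change of 7.62 (voomLmFit adjusted p = 0.22). When the pool was a fixed replicate block 0 were called, and a random block changed no call. For met against control, 2 were called, 1 under the quasi-likelihood test, limma-trend, DESeq2, a mean of at least 5 CPM or only the 2 groups compared, and 0 with pools summed or without the 3 shallow libraries. For non-met against control, 1 was called, and 0 under DESeq2, limma-trend, pools summed or without the 3 shallow libraries. Summing pools leaves fewer samples.

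Leaving out 1 library at a time gave 1 to 2, 1 to 2 and 1 called ligand. Leaving out a control leaves only 1 control library in the fit. Without non-met 1, 2, 5 or 6 or met 1 or 2 the call of *Cxcl11* between met and non-met was lost (adjusted p 0.0637 to 0.0904, voomLmFit), and without met 3 that of *Cxcl10* (adjusted p = 0.0517). Over all alternatives the log2 fold change of *Cxcl10* was 5.91 to 8.30 and that of *Cxcl11* 5.46 to 8.11. For *Cxcl12* it was -4.53 to -2.58 for met and -3.43 to -1.63 for non-met against control. Over all genes, 2 to 326, 9 to 429 and 8 to 264 were called, beside 50, 143 and 76. The share of calls that were higher in met against control was 57.3%, and 46.3% with library size scaling. In non-met against control it was 28.9%, with 13.8% under library size and 39.7% under RLE scaling, and in met against non-met 66%, with 53.3% under RLE.

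Some directions turned, all in results that did not pass. *Cxcl16* between met and non-met was -1.70 under the quasi-likelihood test, -1.94 under DESeq2, -0.20 under limma-trend, -0.30 with pool as a fixed block, -0.31 among libraries with keratin traces and -1.32 to 1.51 with 1 library left out. Its per-library difference turned to 0.08 with a prior count of 0.5, and that of *Cx3cl1* to 0.16. With the same prior count *Ccl2* between non-met and control moved from 3.37 to 5.17. *Cxcl16* between met and control was -1.36 (quasi-likelihood) and -1.37 (DESeq2), and -3.05 to 6.34 with 1 library left out; in non-met against control the range was -3.49 to 5.91. *Cxcl9* between met and control was 0.27, 0.22 and 0.19 under the quasi-likelihood test, DESeq2 and limma-trend, 0.08 with only the 2 groups, and -0.69 to 0.42 with 1 library left out. *Cx3cl1* between met and non-met was -0.96 to 0.25 with 1 library left out. The cause of these changes was not tested. The shallowest library cannot show levels below 5.43 CPM.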
